A study of Mus musculus with 16 samples.

Results

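The Gadd45 family has 3 genes, Gadd45a, Gadd45b and Gadd45g, and was described here in mouse liver over the 6 groups of the study. Its members were taken as every probe set whose platform gene symbol was one of these names, which gave 5 of the 22626 probe sets tested and 3 of the 12393 genes named by them. Gadd45a had 1 probe set (1449519_at), Gadd45b had 3 (1420197_at, 1449773_s_at and 1450971_at) and Gadd45g had 1 (1453851_a_at). The family was chosen by its ratios in AP20187-treated against untreated livers, so that comparison is given as a description with no test. Differences in the diet experiment were tested, but earlier results of these data were known when the family was chosen. The diet tests may therefore not be independent of that choice.

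Liver RNA of male FvB/n mice was measured on 16 Affymetrix arrays in 2 experiments of 8. In the experiment on PERK, 4 arrays came from TTR::Fv2E-PERK mice treated with AP20187 and 4 from untreated TTR::Fv2E-PERK mice, which the design text describes as mock injected. The transgene was carried by both of these groups; it places a drug-dimerised form of the stress kinase PERK under the transthyretin promoter, and the labels name the high expressing line. In the diet experiment, 2 arrays each came from Alb::GC and wildtype mice on HFD, a high fat diet, and from Alb::GC and wildtype mice on LFD, a low fat diet. Alb::GC places an active fragment of GADD34, the phosphatase subunit that reverses eIF2α phosphorylation, under the albumin promoter, so it acts in hepatocytes. The sources used here do not give age, dose, times or the number of animals behind an array, and p-values therefore measure the spread between these arrays, which may be technical. The cross with an Atf4 knockout strain that the design text mentions was not analysed here.

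Gadd45 proteins are small, acidic, mostly nuclear proteins with no enzyme activity of their own, made in larger amounts when cells meet DNA damage, starvation, inflammatory signals or protein folding stress. They act by binding partners. They bind the replication clamp PCNA, the cell cycle inhibitor p21 and the mitotic kinase CDK1, and they bind and activate the kinase MTK1 (gene Map3k4) at the head of the p38 and JNK cascades. In liver, Gadd45b is known as an early gene of regeneration that restrains JNK signalling through MKK7, and all members have been tied to active DNA demethylation.

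The promoters are shown because the 3 genes had their higher values together in AP20187-treated livers and parted in the diet experiment. Each window runs from 250 bases before to 50 bases after the annotated start (RefSeq, GRCm38.p6), 5′ to 3′ on the strand of the gene, and positions count from the start base as 0. The windows are chr6:67037358-67037657 on the minus strand for Gadd45a, chr10:80929841-80930140 on the plus strand for Gadd45b and chr13:51846425-51846724 on the plus strand for Gadd45g. Capitals mark matches, on either strand, to 6 motifs, which were the C/EBP-ATF response element core TGATGNAA, the cAMP response element TGACGTCA, the octamer ATTTGCAT, the CCAAT box CCAAT, the TATA box TATAAA and the E-box CACGTG.
Gadd45a: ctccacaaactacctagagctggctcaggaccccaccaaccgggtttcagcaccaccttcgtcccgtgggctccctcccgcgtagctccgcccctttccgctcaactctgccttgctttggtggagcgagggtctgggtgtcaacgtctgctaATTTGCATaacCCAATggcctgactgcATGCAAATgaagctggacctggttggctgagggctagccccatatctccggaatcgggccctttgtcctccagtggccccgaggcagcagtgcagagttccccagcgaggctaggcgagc
Gadd45b: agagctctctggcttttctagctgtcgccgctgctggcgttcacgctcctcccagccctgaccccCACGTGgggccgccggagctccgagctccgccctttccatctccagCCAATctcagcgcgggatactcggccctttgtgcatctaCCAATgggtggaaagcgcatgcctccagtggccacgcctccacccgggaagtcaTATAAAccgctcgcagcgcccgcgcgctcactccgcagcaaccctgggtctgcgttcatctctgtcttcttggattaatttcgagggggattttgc
Gadd45g: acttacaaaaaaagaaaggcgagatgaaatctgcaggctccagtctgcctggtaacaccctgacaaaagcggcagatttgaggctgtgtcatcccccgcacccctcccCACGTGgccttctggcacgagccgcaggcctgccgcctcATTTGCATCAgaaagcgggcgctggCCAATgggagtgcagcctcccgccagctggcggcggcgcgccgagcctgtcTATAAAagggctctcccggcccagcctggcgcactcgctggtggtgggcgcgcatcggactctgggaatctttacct

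A CCAAT box, the site known for the factor NF-Y, was matched in 3 of 3 windows, against 37.4% of 32851 promoter windows of the same length. The octamer, known as the site of OCT1, was matched in Gadd45a and Gadd45g, against 1.74% of all windows. In Gadd45a it stood at positions -97 to -90 and, on the opposite strand, at -70 to -63, with the CCAAT box between them at -86 to -82. In Gadd45g it stood at -103 to -96 and overlapped the C/EBP-ATF core on the opposite strand at -101 to -94, so these 2 matches share bases. That core, the kind of site bound by ATF4 with C/EBP proteins, was matched in Gadd45g alone of the 3, against 3.97% of all windows. TATA boxes were matched at -46 to -41 in Gadd45b and at -27 to -22 in Gadd45g, against 13.6% of all windows. E-boxes were matched in the same 2 genes at -185 to -180 and -142 to -137, against 7.15% of all windows. The cAMP response element was in none of the 3 windows and in 1.79% of all windows, and absent letters say nothing of sites outside these bases.

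**Figure D1:**
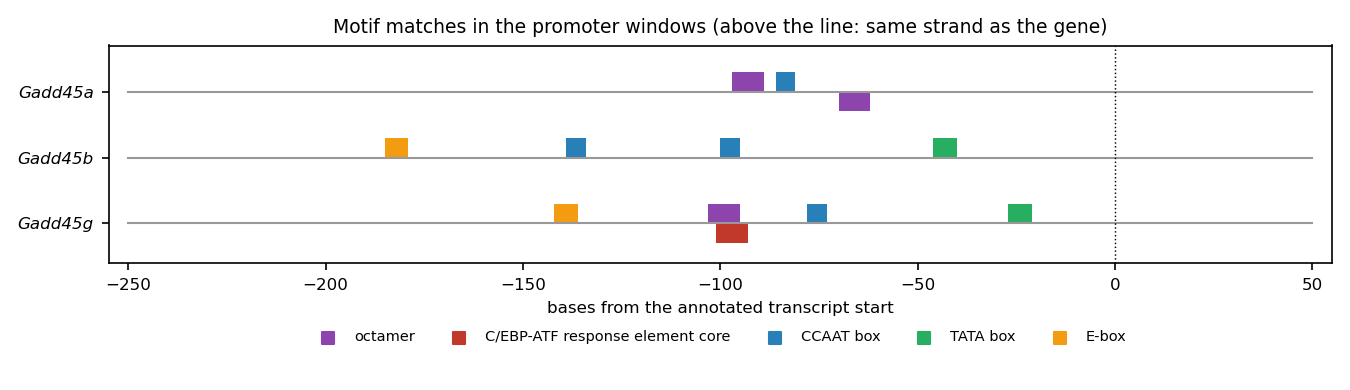
Positions of motif matches in the 3 promoter windows, in bases from the annotated transcript start, with matches on the strand of the gene above each line and matches on the opposite strand below it. All 3 windows hold a CCAAT box, and the overlap of octamer and C/EBP-ATF core is seen in Gadd45g.

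The deposited values are linear ratios around 1 with 2 decimals, and the sources used here do not give the divisor. They carry no absolute level, so the family members could not be ranked against each other by abundance and the 2 experiments were not set on a common scale. Differences are log2 differences of the ratio plus 0.05 with the standard error of a linear model (limma), and adjusted p-values are Benjamini-Hochberg over all 22626 probe sets with a threshold of 0.05. In whole liver, fewer cells of a type and less RNA per cell cannot be told apart.

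All 5 Gadd45 probe sets were higher in each AP20187-treated liver than in any untreated liver. This describes the comparison that chose the family, in which 13.7% of all probe sets passed as higher. The share of all probe sets that separate this way was not computed. Gadd45a, the member first isolated as a DNA damage-inducible gene, had ratios of 3.28, 3.51, 3.09 and 3.73 in AP20187-treated livers, against 0.02, 0.03, 0.02 and 0.02 in untreated livers. The lowest treated array was 103 times the highest untreated one, and untreated livers were close to 0.01, the bottom of the deposited scale. Gadd45g, a member known as a cytokine-inducible gene, had 3.33, 3.56, 3.23 and 3.58 in treated livers, against 0.21, 0.39, 0.40 and 0.22 in untreated livers. The treated arrays of both genes lay close together, with means of 3.40 ± 0.278 for Gadd45a and 3.43 ± 0.173 for Gadd45g (SD, n = 4 each), against 0.0225 ± 0.005 and 0.305 ± 0.104 in untreated livers.

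The 3 probe sets of Gadd45b differed in size. For 1450971_at the ratios were 2.34, 2.40, 1.01 and 1.69 in AP20187-treated livers, against 0.03, 0.02, 0.02 and 0.01 in untreated livers. For 1449773_s_at they were 2.35, 2.44, 1.01 and 1.85 in treated livers, against 0.17, 0.19, 0.24 and 0.18 in untreated livers. AP20187 replicate 3 was the lowest treated array for both. The probe set 1420197_at moved least, with 1.30, 1.40, 1.24 and 1.55 in treated livers, against 0.85, 0.64, 0.82 and 1 in untreated livers. The platform annotation gives an accession, AK010420, for 1450971_at and none for the other 2, so which part of the Gadd45b transcript each of those reads was not settled.

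**Figure D2:**
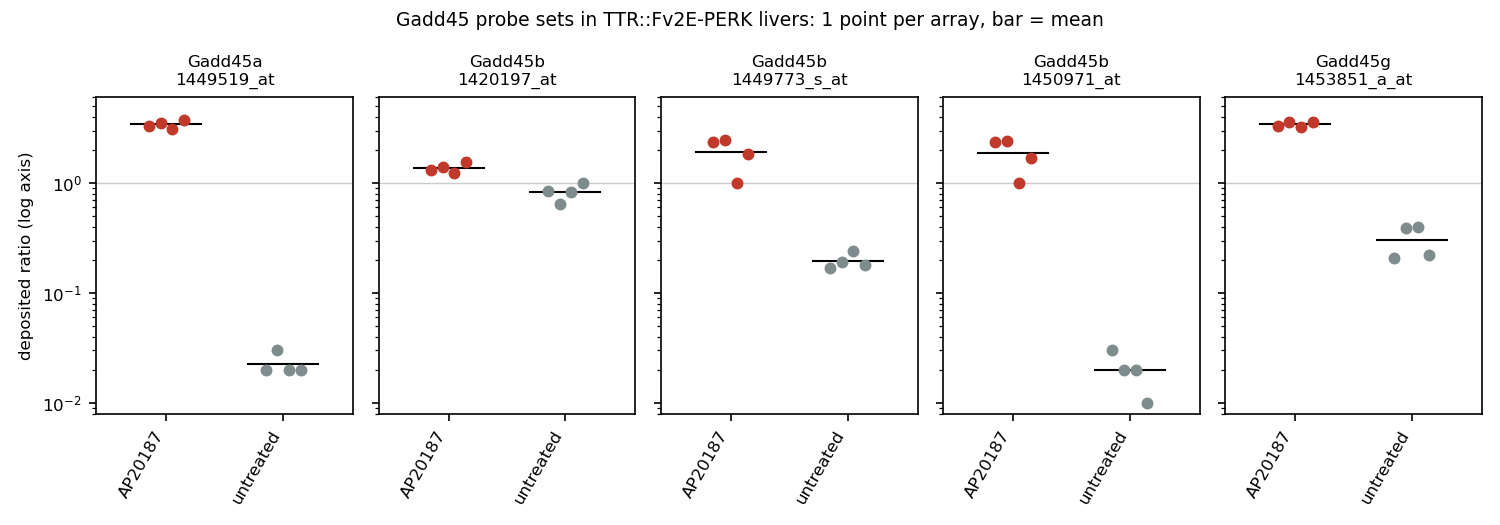
Deposited ratio (log axis) of the 5 Gadd45 probe sets in the 4 AP20187-treated and the 4 untreated TTR::Fv2E-PERK livers, 1 point per array with a bar at the mean. Treated and untreated arrays do not overlap in any panel, in the comparison by which the family was chosen. Gadd45a lies at 3.09 to 3.73 in treated and at 0.02 to 0.03 in untreated livers.

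As log2 differences, AP20187-treated minus untreated, Gadd45a stood at 5.57 ± 0.22, in place 1 of the 22626 probe sets ordered from the highest. Gadd45b 1450971_at stood in place 2 at 4.70 ± 0.35. Gadd45g stood at 3.34 ± 0.20 (place 48), Gadd45b 1449773_s_at at 2.93 ± 0.30 (place 83) and 1420197_at at 0.71 ± 0.14 (place 2737). The median of all probe sets was -0.13. In this comparison 34.1% of all probe sets passed, 13.7% higher and 20.4% lower in treated livers; these shares are given for scale, since the comparison chose the family. The sizes of the first 2 depend on the constant added before log2, because their untreated ratios are close to 0. With 0.01 added, Gadd45a stood at 6.72 and 1450971_at at 5.93, and with 0.1 added at 4.84 and 3.96. Gadd45a was in place 1 with 0, 0.01, 0.02, 0.05 or 0.1 added, while 1450971_at was in place 2 with 0.01, 0.02 or 0.05, place 3 with 0.1 and place 4 with none. Gadd45g was in place 36 to 66 over these constants.

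On HFD the members parted. Gadd45a rose and Gadd45g fell, and 1 of the 3 Gadd45b probe sets, 1420197_at, fell. Gadd45a had ratios of 1.77 and 2.53 in HFD Alb::GC and of 3.93 and 3.80 in HFD wildtype livers, against 0.37 and 0.13 in LFD Alb::GC and 0.93 and 0.18 in LFD wildtype livers. All 4 HFD arrays were above all 4 LFD arrays. Averaged over genotypes, the difference was 3.01 ± 0.50 (95% interval 1.80 to 4.23; limma, adjusted p = 0.0106), in place 70 from the highest.

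Gadd45g went the other way. It had ratios of 0.16 and 0.20 in HFD Alb::GC and of 0.29 and 0.29 in HFD wildtype livers, against 3.85 and 3.99 in LFD Alb::GC and 2.38 and 1.41 in LFD wildtype livers. All 4 HFD arrays were below all 4 LFD arrays. Averaged over genotypes it fell by 3.29 ± 0.20 on the log2 scale (limma, adjusted p = 0.00101), in place 9 from the lowest of all probe sets.

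Gadd45b 1420197_at had 0.43 and 0.56 in HFD Alb::GC and 0.51 and 0.41 in HFD wildtype livers, against 0.96 and 0.91 in LFD Alb::GC and 1.05 and 1.14 in LFD wildtype livers. It fell by 1.02 ± 0.19 (limma, adjusted p = 0.0153). The other probe sets of Gadd45b did not pass. For 1449773_s_at the ratios were 0.73 and 0.49 in HFD Alb::GC and 0.60 and 0.72 in HFD wildtype livers, against 0.99 and 0.83 in LFD Alb::GC and 1.01 and 1.29 in LFD wildtype livers, a difference of -0.66 ± 0.20 (limma, adjusted p = 0.0539). The HFD and LFD arrays of this probe set do not overlap, and with a variance estimate that does not follow the mean its adjusted p was 0.0446. For 1450971_at the ratios were 0.33 and 0.45 in HFD Alb::GC and 0.51 and 1.63 in HFD wildtype livers, against 0.55 and 0.66 in LFD Alb::GC and 1.11 and 0.89 in LFD wildtype livers. Its difference was -0.34 ± 0.38 (limma, adjusted p = 0.520), and it turned to 0.05 without HFD wildtype replicate 1, the lower of that pair.

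Thus 3 of 5 Gadd45 probe sets passed with HFD averaged over genotypes, 1 higher and 2 lower, where 27.5% of all probe sets passed, 13.5% higher and 14% lower. In wildtype livers alone 3 of 5 passed, where 14.6% of all did. Gadd45a stood at 3.04 ± 0.71, Gadd45b 1420197_at at -1.17 ± 0.28 and Gadd45g at -2.47 ± 0.29 (limma, adjusted p = 0.0399, 0.0405 and 0.00803). These wildtype calls rest on 2 arrays a group. Leaving out any array of the diet experiment except LFD wildtype replicate 1 ended that of Gadd45a (limma, adjusted p 0.0510 to 0.145), and leaving out any of the 8 ended that of 1420197_at (0.0560 to 0.150). That of Gadd45g ended without HFD wildtype replicate 1 (0.0501) or replicate 2 (0.0510). In Alb::GC livers 1 of 5 passed, where 6.77% of all did. This was Gadd45g at -4.11 ± 0.29 (limma, adjusted p = 0.00555), in place 3 from the lowest, while Gadd45a stood at 2.98 ± 0.71 (0.0605) and 1420197_at at -0.86 ± 0.28 (0.108). Gadd45a passed in Alb::GC without LFD wildtype replicate 1 (0.0320) or replicate 2 (0.0286), the arrays at 0.93 and 0.18. In 1 fit over all 16 arrays Gadd45a (0.00403) and 1420197_at (0.0186) also passed in Alb::GC, which made 3 of 5, with 3519 of all probe sets called there. The pooled SD of Gadd45a in the diet experiment was 0.875, against a median of 0.274 over all probe sets.

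**Figure D3:**
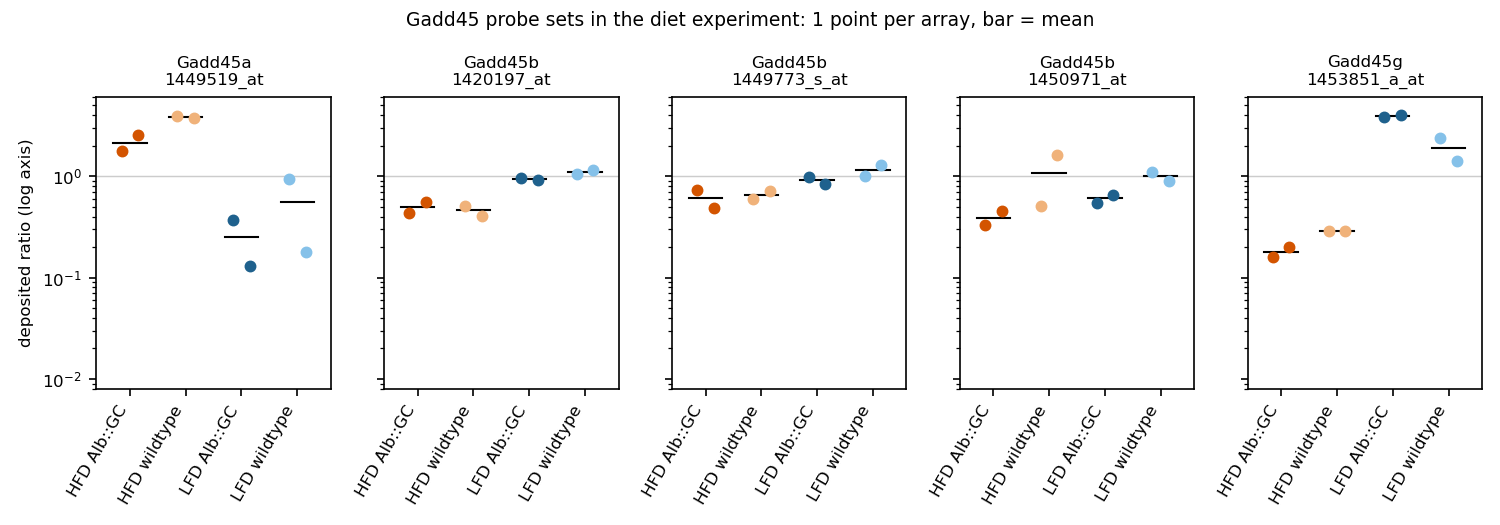
Deposited ratio (log axis) of the 5 Gadd45 probe sets in HFD Alb::GC, HFD wildtype, LFD Alb::GC and LFD wildtype livers, 1 point per array (2 a group) with a bar at the mean. Gadd45a is higher in all 4 HFD arrays and Gadd45g is lower in all 4, with LFD Alb::GC the highest group of Gadd45g at 3.85 and 3.99.

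The RNA controls moved with diet. The log2 difference between the 3′ and 5′ control probe sets of Gapdh was -0.31 to -0.15 in the 4 HFD arrays, against 0.04 to 0.22 in the 4 LFD arrays, and that of beta-actin was -0.71 to -0.33 on HFD, against -0.16 to 0.21 on LFD. Their part in the Gadd45 differences was not tested. In the PERK experiment the Gapdh difference was -0.14 to 0.19 in treated and -0.06 to -0.01 in untreated livers, and that of beta-actin -0.04 to 0.15 in treated and -0.18 to -0.02 in untreated livers. The mean ratio of 6 neutrophil markers was 2.07 to 2.51 in HFD wildtype and 0.708 to 0.875 in HFD Alb::GC livers, against 1.08 to 1.25 in LFD Alb::GC and 0.730 to 0.933 in LFD wildtype livers. The neutrophil mean was lower in treated than in untreated livers of the PERK experiment, at 0.728 to 0.995 against 1.11 to 1.28. So were the means of 8 hepatocyte markers (0.898 to 1.04 against 1.19 to 1.35), 7 macrophage markers (0.729 to 0.999 against 1.17 to 1.25), 6 stellate markers (0.835 to 1.002 against 1.65 to 1.96) and 6 endothelial markers (0.922 to 1.04 against 1.25 to 1.34). Of single markers, 7 hepatocyte, 3 macrophage, 3 stellate and 3 endothelial ones fell with AP20187, where 20.4% of all probe sets fell. None in these lists rose. With AP20187 no neutrophil marker passed, with S100a8 at 0.14, and the hepatocyte marker Tat also stood at 0.14. The endothelial markers were at 1.12 to 1.33 on HFD, against 0.812 to 1.11 on LFD, and the hepatocyte markers at 0.856 to 0.929 on HFD, against 0.938 to 1.12 on LFD. Averaged over genotypes 1 endothelial marker rose and none fell, and 3 hepatocyte markers fell and none rose. Of all probe sets 13.5% rose and 14% fell. With HFD in wildtype livers Tek, an endothelial marker, stood at -0.36 and Tat at 0.27, against the direction of these means, and neither passed. The means of 4 cholangiocyte markers and of the 5 lymphocyte markers measured overlapped between treated and untreated livers. Of the cholangiocyte markers 1 rose with AP20187 and none fell, where 13.7% of all probe sets rose and 20.4% fell. This was Sox9 at 1.06 (limma, adjusted p = 0.00244), while Krt19 stood at -1.59 and did not pass. No lymphocyte marker passed with AP20187. On HFD the cholangiocyte mean was 0.790 to 0.888 in Alb::GC and 0.453 to 0.593 in wildtype livers, against 1.26 to 1.502 in LFD Alb::GC and 0.820 to 1.03 in LFD wildtype livers. It was lower on HFD in each genotype with no overlap. Averaged over genotypes 2 of the 4 markers fell (median -0.77, against -0.07 over all), where 14% of all probe sets fell. With the probe sets of highest mean 1 fell and 1 rose (median -0.68). The lymphocyte mean was 0.638 to 1.06 in HFD Alb::GC and 0.792 to 0.904 in HFD wildtype livers, against 0.936 to 1.12 in LFD Alb::GC and 1.07 to 1.27 in LFD wildtype livers. No marker measured in these lists was at the smallest value, a ratio shows no presence, and the part of these markers in the Gadd45 values was not tested.

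The members were also compared with each other within each array. The log2 value of Gadd45a minus that of Gadd45g lay at 3.12 to 3.55 in the 4 HFD arrays, against -4.49 to -1.31 in the 4 LFD arrays, so that the response of Gadd45a to HFD exceeded that of Gadd45g by 6.30. Of 10 pairs of probe sets, 7 passed (exact two-sided permutation test, p = 0.0286, adjusted over the 10 pairs 0.0408). This p is the smallest that 70 arrangements of 4 against 4 arrays allow. These 7 were Gadd45a against each other probe set, higher by 3.36 to 6.30, and each Gadd45b probe set against Gadd45g, higher by 2.27 to 2.95. All HFD arrays lay above all LFD arrays for Gadd45a, and below them for Gadd45g and Gadd45b 1420197_at and 1449773_s_at. The pairs of Gadd45a with these probe sets had to give this p, so it adds nothing to those separations. They also count in the adjustment over the 10 pairs. The adjusted p of the other pairs leans on them, so their pass is not separate support. The pairs count the 3 probe sets of Gadd45b separately. How often other pairs of probe sets reach this p was not computed. The 3 pairs within Gadd45b differed by 0.31 to 0.67 in size and did not pass (exact permutation p = 0.229, 0.229 and 0.6; adjusted 0.254, 0.254 and 0.6). The test puts the genotypes together, and with 4 arrays a side it cannot show that Gadd45b probe sets respond alike.

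Between genotypes no Gadd45 probe set passed. In Alb::GC against wildtype livers 0% of all probe sets passed on LFD, 0.133% on HFD and 0% averaged over diets, and 0% passed for the interaction of diet and genotype. By limma, 2337, 2596 and 2517 probe sets had an unadjusted p under 0.05 on LFD, averaged over diets and in the interaction. The genotypes did not overlap on either diet for Gadd45g and Gadd45b 1450971_at, on HFD for Gadd45a, and on LFD for 1420197_at and 1449773_s_at. With 2 arrays a group such separation often arises by chance, and its share over all probe sets was not computed. Gadd45g stood at 1.08 ± 0.29 in Alb::GC against wildtype on LFD (95% interval 0.38 to 1.77; limma, adjusted p = 0.328) and at -0.57 ± 0.29 on HFD (-1.27 to 0.13; 0.544). Its response to HFD differed between Alb::GC and wildtype by -1.64 ± 0.41 (95% interval -2.63 to -0.66), with an unadjusted p of 0.0062 by limma and an adjusted p of 0.250. Gadd45a stood at -0.85 ± 0.71 on HFD and -0.79 ± 0.71 on LFD (by limma, 0.724 and 0.733 after adjustment), and its interaction was -0.07 ± 1.004 (95% interval -2.49 to 2.36; 0.986). The LFD value of Gadd45a turned to 0.26 without LFD wildtype replicate 1, the higher of that pair. Gadd45b 1450971_at stood at -1.15 ± 0.53 on HFD and -0.68 ± 0.53 on LFD (adjusted p = 0.501 and 0.694 by limma), and the other Gadd45b probe sets at -0.32 to 0.09.

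Ordered by level within the diet experiment, Gadd45g was highest in LFD Alb::GC, then LFD wildtype, HFD wildtype and HFD Alb::GC, with no overlap between neighbours. Gadd45a was highest in HFD wildtype, then HFD Alb::GC, and its 2 LFD groups overlapped below them. For Gadd45b 1420197_at and 1449773_s_at the order was LFD wildtype, LFD Alb::GC and then the 2 HFD groups, which overlapped. For 1450971_at LFD wildtype, HFD wildtype and LFD Alb::GC overlapped as neighbours and HFD Alb::GC was lowest. These orders describe 2 arrays a group. No step between genotypes passed, for Gadd45g or any other probe set of the family. With so few arrays such separation often arises by chance, and its share over all probe sets was not computed.

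**Figure D4:**
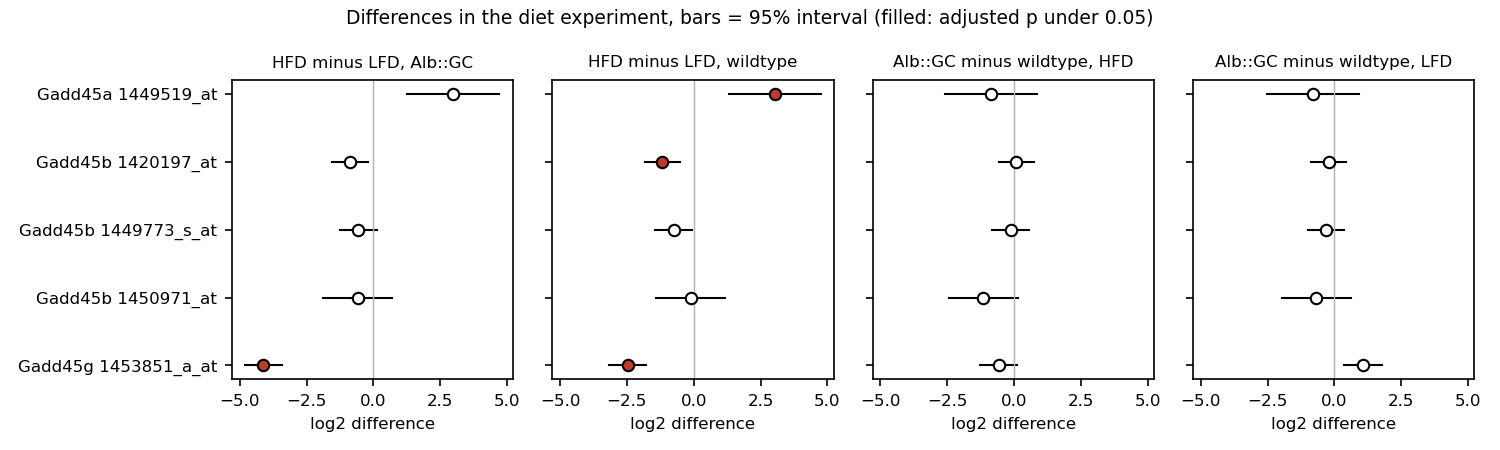
Log2 difference with its 95% interval for the 5 Gadd45 probe sets, HFD minus LFD in Alb::GC and in wildtype livers, and Alb::GC minus wildtype on HFD and on LFD. Filled points passed at an adjusted p under 0.05; they are Gadd45g in both diet panels, with Gadd45a and Gadd45b 1420197_at in wildtype.

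The genes whose values most resembled each member over the 8 arrays of an experiment were found by the root mean square (RMS) difference of log2 values centred on their mean, and 21 of the 30 were found again with 0.1 added in place of 0.05. Those lost were Atf3 and Myc for Gadd45a, Cyp2b10 and Sesn2 for Gadd45g, Tlr2 for Gadd45b 1449773_s_at and Fgf21 for 1450971_at in the PERK experiment, and Rgs16 for Gadd45a, Oaz2 for 1449773_s_at and Atxn1 for 1450971_at in the diet experiment. In the PERK experiment Gadd45a was nearest to the hepatokine gene Fgf21 (RMS 0.616), the stress transcription factor gene Atf3 (0.643) and Myc (0.661). Fgf21 lay at 3.03 to 4.80 in treated livers, against 0.05 to 0.15 in untreated livers. Gadd45b 1450971_at was nearest to the chemokine gene Cxcl2 (0.192), at 1.04 to 2.96 in treated and 0.03 to 0.04 in untreated livers, then Fgf21 (0.351) and the chemokine gene Cxcl1 (0.385). The 1449773_s_at probe set was nearest to Il1rn, the interleukin 1 receptor antagonist (0.178), the calcineurin regulator Rcan1 (0.192) and the receptor gene Tlr2 (0.230). The 1420197_at probe set was nearest to Rpp14 (0.0729), Zfp346 (0.0756) and Ubap1 (0.0855). Gadd45g was nearest to the drug-metabolising gene Cyp2b10 (0.225), the stress gene Sesn2 (0.257) and the kinase gene Pim3 (0.258).

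In the diet experiment Gadd45a was nearest to Thrsp, a regulator of lipogenesis (RMS 0.330), which lay at 5.68 to 8.74 on HFD, against 0.46 to 1.94 on LFD. Zfp503 (0.459) and the G protein regulator Rgs16 (0.481) came next. Gadd45g was nearest to Gpr63 (0.335), the mucin gene Muc4 (0.378) and the apelin receptor gene Aplnr (0.450). Among the Gadd45b probe sets, 1420197_at was nearest to Cox7a2l (0.106), Atoh1 (0.107) and Artn (0.114), 1449773_s_at to Galc (0.109), Dnajc28 (0.117) and Oaz2 (0.124), and 1450971_at to Atg7 (0.253), Hps1 (0.290) and Atxn1 (0.296). The 8 arrays of an experiment share their group means, so no test of this likeness is given.

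Genes that work with the family were read beside it, by role, from lists of partners and regulators; 30 of 36 had a probe set with 1 symbol. With AP20187, 13 of the 30 rose and 4 fell, where 13.7% of all probe sets rose and 20.4% fell. With HFD averaged over genotypes, 5 rose and 7 fell, where 13.5% of all rose and 14% fell; taking the probe set of highest mean for each gene gave 10 and 5. In wildtype livers 2 rose and 2 fell (7 and 0 with the probe set of highest mean), where 14.6% of all passed in either direction, so the 4 of 30 lay near that share. In Alb::GC livers 5 rose and 4 fell (7 and 4), where 6.77% of all passed. Between genotypes Stat3 alone passed, at -1.24 ± 0.12 on HFD (limma, adjusted p = 0.0440), where 0.133% of all probe sets passed. It was read by 1 of its 3 probe sets, and the call rests on 2 arrays a group.

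The other GADD genes are Ddit3 (CHOP, GADD153) and Ppp1r15a (GADD34), whose family name they share by discovery and not by structure. Both rose with AP20187 (list median 2.44, against -0.13 over all probe sets). Ddit3 had ratios of 0.98, 1.15, 1.33 and 0.84 in treated livers, against 0.06, 0.05, 0.07 and 0.06 in untreated livers, a rise of 3.34 ± 0.27 (limma, adjusted p = 0.000125). Ppp1r15a rose by 1.55 ± 0.20. With HFD the list median was -0.74, against -0.07 over all. Ppp1r15a fell by 0.84 ± 0.16 (limma, adjusted p = 0.0156), and Ddit3 stood at -0.64 ± 0.19 (0.0516). With HFD Ddit3 stood at -1.23 ± 0.27 in Alb::GC livers and at -0.04 ± 0.27 in wildtype livers (limma, adjusted p = 0.0496 and 0.934). Its interaction of diet and genotype did not pass (limma, adjusted p = 0.345).

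Among the cell cycle partners, 3 of 4 were measured. Cdkn1a, the gene of p21, rose with AP20187 by 2.93 ± 0.24 and Pcna fell by 0.40 ± 0.13 (limma, adjusted p = 0.000131 and 0.0410), while Cdk1 stood at 0.17 ± 0.54. With HFD Cdkn1a fell by 0.96 ± 0.24 averaged over genotypes (limma, adjusted p = 0.0319). It had 0.59 and 0.28 in HFD Alb::GC and 1.04 and 0.96 in HFD wildtype livers, against 2.26 and 3.14 in LFD Alb::GC and 0.66 and 0.59 in LFD wildtype livers. Its HFD arrays were thus lower than LFD arrays in Alb::GC livers and higher in wildtype livers. Within Alb::GC it fell by 2.56 ± 0.34 (limma, adjusted p = 0.0173). A second probe set of Cdkn1a stood at -0.99 averaged over genotypes and did not pass (0.194).

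Of the stress MAP kinase arm that Gadd45 proteins act on, 7 of 8 genes were measured, and with AP20187 2 rose and 2 fell (median 0.18). Map2k6, which activates p38, had 3.48, 3.20, 3.22 and 4.95 in treated livers, against 0.85, 0.70, 0.81 and 1.15 in untreated livers, a rise of 2.02 ± 0.20 (limma, adjusted p = 0.000248). Mapk14, the gene of p38α, rose by 0.32 ± 0.10. Map3k4, the direct partner of Gadd45 proteins, fell by 0.92 ± 0.12, and the JNK gene Mapk9 fell by 0.48 ± 0.10. With HFD Map2k3 and Mapk14 rose by 0.67 ± 0.11 and 0.63 ± 0.09 and Mapk8 fell by 0.64 ± 0.17 (median 0.33), but another probe set of Mapk8 rose by 1.01. Of the other Mapk14 probe sets 2 rose, by 0.78 and 1.69, and 1 stood at -1.04 and did not pass (limma, adjusted p = 0.0302, 0.00568 and 0.109). With the probe sets of highest mean, 5 genes of this list rose and none fell on HFD (median 0.69), and 1 rose and 2 fell with AP20187 (median 0.03).

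Of the DNA repair and nuclear partners, 5 of 6 were measured, and with AP20187 2 rose and 1 fell (median 0.05). Ercc5, the gene of the repair nuclease XPG, rose by 0.71 ± 0.10 and Npm1, the gene of nucleophosmin, by 0.42 ± 0.12. Gadd45gip1, the gene of a protein named for binding Gadd45g, fell by 1.09 ± 0.18, though its second probe set stood at 0.10. With HFD 1 fell and none rose (median -0.04), and this was Taf12 at -0.36 ± 0.10 (limma, adjusted p = 0.0466). A second probe set of Ing1 rose by 2.97 (limma, adjusted p = 0.0284), while the one read here stood at 0.17. With the probe sets of highest mean, 1 rose and 1 fell.

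Of 16 genes known as regulators of the family, 13 were measured, and with AP20187 6 rose and none fell (median 0.52), where 13.7% of all probe sets rose and 20.4% fell. With the probe sets of highest mean 7 rose (median 1.05). Atf4 as read here stood at 0.52 ± 0.19 (limma, adjusted p = 0.0691), and another of its probe sets rose by 0.93 (0.00573). Atf3 rose by 4.32 ± 0.25 and Myc by 4.30 ± 0.26, Egr1 by 2.85 ± 0.22 and Foxo1, a forkhead factor of the fasting response, by 1.68 ± 0.09 (limma, adjusted p at most 0.000106); Foxo3 and Rela were the others. With HFD 3 rose and 3 fell (median 0.15), and with the probe sets of highest mean 4 rose and 2 fell. Foxo1 had 2.59 and 2.90 in HFD Alb::GC and 2.38 and 2.22 in HFD wildtype livers, against 0.99 and 0.79 in LFD Alb::GC and 0.90 and 0.67 in LFD wildtype livers, a rise of 1.54 ± 0.14 (limma, adjusted p = 0.00223). Foxo3 rose by 0.97 ± 0.15 and Stat3 by 1.36 ± 0.08. Another Stat3 probe set passed as lower, at -0.96, and a further one as higher, at 0.92 (limma, adjusted p = 0.0092 and 0.0380). Another probe set of Foxo1 stood at -0.48 and another of Foxo3 at -0.09, and neither passed. Myc fell by 1.76 ± 0.21 (limma, adjusted p = 0.0045); it had 0.75 and 0.52 in HFD Alb::GC and 0.44 and 0.78 in HFD wildtype livers, against 5.11 and 4.16 in LFD Alb::GC and 0.92 and 1.11 in LFD wildtype livers. Atf4 and Brca1 also fell. The other Atf4 probe sets stood at -0.22 and -0.05 and did not pass. The 3 other probe sets of Brca1 stood at 0.49 to 1.35, and the one at 0.99 passed as higher (limma, adjusted p = 0.0129). Smad4 and Nfya did not pass as read here. Other probe sets of Smad4 passed as higher at 1.49 and 0.53, and another of Nfya as lower at -1.21. With AP20187 the Brca1 probe set read here stood at -0.27. The other 3 of Brca1 rose by 2.68 to 3.09 (limma, adjusted p = 0.000377 to 0.0224). Beside these values, Gadd45a was higher in both AP20187-treated and HFD livers, like Foxo1, Foxo3 and Mapk14. Gadd45g and Gadd45b 1420197_at were higher with AP20187 and lower on HFD, like Myc, Ppp1r15a and Cdkn1a. No other listed gene, as read here, passed in both comparisons. With HFD in wildtype livers alone, Myc stood at -0.73 ± 0.30 and Cdkn1a at 0.64 ± 0.34. Neither passed there (limma, adjusted p = 0.143 and 0.240). The 2 experiments share no arrays, and this likeness of direction was not tested.

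**Figure D5:**
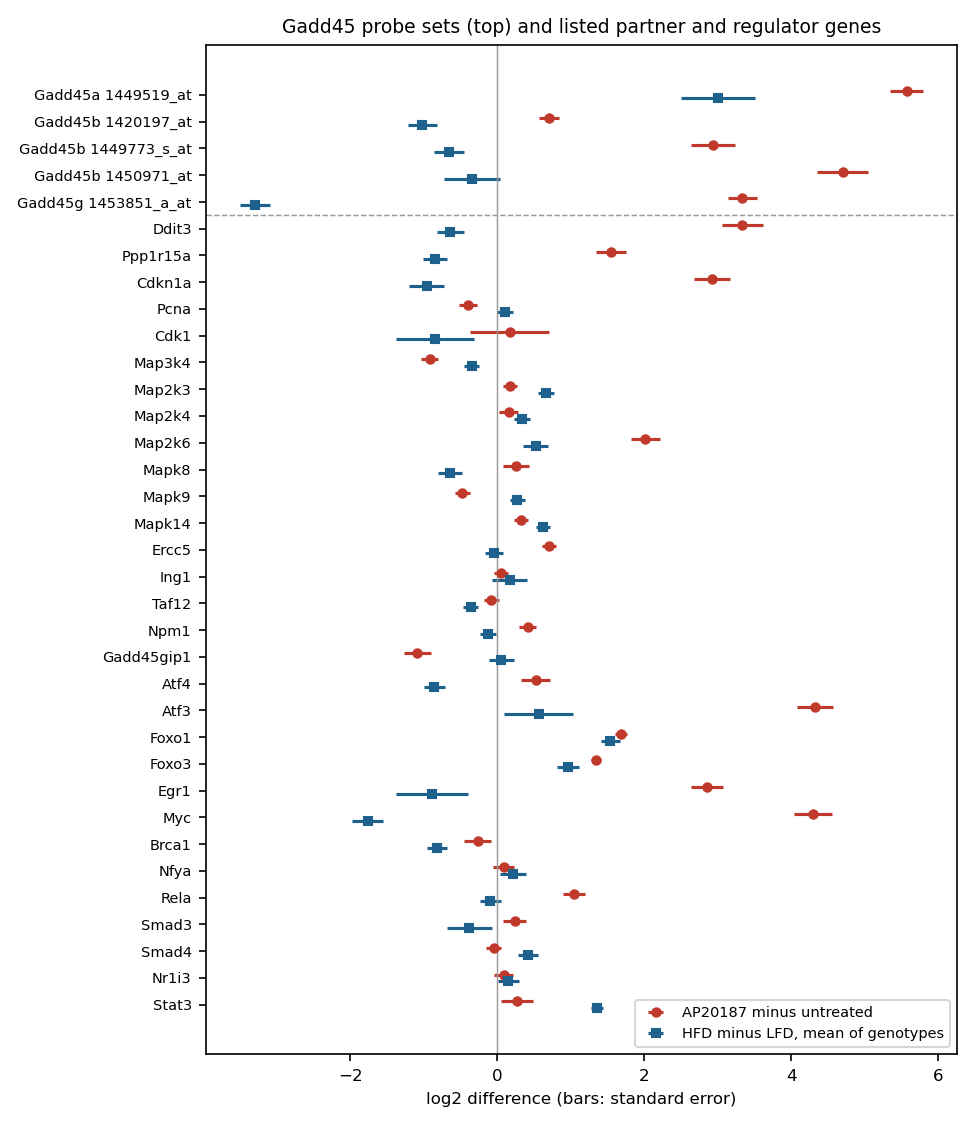
Log2 difference with its standard error for the 5 Gadd45 probe sets and 30 partner and regulator genes, AP20187-treated minus untreated (circles) and HFD minus LFD averaged over genotypes (squares). Gadd45a has both marks above 0, at 5.57 and 3.01, and Gadd45g has them on opposite sides, at 3.34 and -3.29.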

How the data were processed

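The authors deposited 1 ratio per probe set and array, a unit read from the values, because the sources used here do not give the scanner software, summary method or divisor. Arrays were kept as deposited (medians 0.94 to 1.02). RNA was labelled with biotin, per the labels' protocols. Groups came from each array's description; for LFD wildtype replicate 2 and AP20187 replicate 4 another label field was unclear. None of the 16 replicate pairs was a duplicate (log2 correlation 0.442 to 0.658). After 64 control probe sets were left out, log2(ratio + 0.05) was fitted in R 4.3.3 by limma 3.58.1, with a variance trend, in 1 fit for each experiment of 8 arrays, at a threshold of 0.05; the steps were tested on simulated data. Pairs of members were compared by exact permutation (scipy 1.17.1, Python 3.11.15). Symbols came from the platform annotation (20380 probe sets with 1 symbol, 691 with several, 1555 with none). A listed gene was read by its probe set of smallest spread, and up to 4 a list and comparison are named by size. Promoters were searched in RefSeq windows; 3 of 3 members matched. Alternatives were other constants, median centring, quantile normalization, a filter on medians under 0.2, no variance trend, 1 fit of 16 arrays, and each array left out. The members and lists were chosen with earlier results of these data known. The number of arrays limits the precision.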

Additional observations from a re-analysis of the deposited data

Results flagged for a closer look

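Of 10 sets of 4 arrays examined, those of the 5 Gadd45 probe sets in AP20187-treated and in untreated livers, 1 had an array far from the others. This was Gadd45a in untreated livers, where the highest array was 0.03 and the other 3 were 0.02, so the gap is a step of the rounding to 2 decimals. Chance alone marks about 1 in 20 such sets.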

How the results depend on the processing

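Averaged over genotypes, the HFD calls of Gadd45a (2.49 to 3.53), Gadd45b 1420197_at (-1.10 to -0.90) and Gadd45g (-3.56 to -3.08) passed under each of 17 alternatives; that of 1449773_s_at passed without a variance trend (-0.66). With AP20187, Gadd45a and Gadd45b 1450971_at stood at 6.72 and 5.93 with 0.01 added, 6.33 and 5.50 with 0.02, 4.84 and 3.96 with 0.1, and 7.26 and 6.56 with none. The interaction of Gadd45a turned to 0.0080 with 0.01 added, 0.031 with none and 0.21 with quantile normalization. Under quantile normalization the wildtype HFD values of Gadd45a and 1420197_at no longer passed (limma, adjusted p = 0.0597 and 0.0645). In a fit of all 16 arrays Gadd45a and 1420197_at passed for HFD in Alb::GC (0.00403 and 0.0186), and the probe sets called were 5110 for HFD in wildtype (3303 in the separate fit), 3519 in Alb::GC (1531), 160 and 256 for Alb::GC against wildtype on LFD (0) and HFD (30), 162 over both diets (0) and 212 for the interaction (0). Without a variance trend 15 were called between genotypes on HFD and 5 for the interaction, 4 with nothing added, and 0 after quantile normalization. With the probe set of highest mean, 7 listed genes were called for HFD in wildtype. Leaving out each array in turn gave 47 to 2590 called for HFD in wildtype, 18 to 1680 in Alb::GC, 3287 to 5035 over both genotypes and 0 to 0 between genotypes on HFD. It turned the sign of uncalled values of Gadd45a on LFD between genotypes (-1.83 to 0.26) and in the interaction (-1.11 to 0.98), of 1420197_at between genotypes on HFD (-0.080 to 0.27) and over diets (-0.15 to 0.024), of 1449773_s_at between genotypes on HFD (-0.39 to 0.14) and in the interaction (-0.073 to 0.46), and of 1450971_at for HFD in wildtype (-0.90 to 0.69), over genotypes (-0.74 to 0.052) and in the interaction (-1.27 to 0.32). A group left with 1 array was assumed to vary like the others, and apart from smaller groups the cause of these changes was not tested. No paired analysis was possible because array numbers run in sequence through the labels and tie no arrays across groups. Signal over background is not in the ratios, so dim probe sets could not be set apart.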
